A study of Mus musculus with 14 samples.

Results

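The interleukin and chemokine genes analysed here were the 131 autosomal protein-coding RefSeq genes whose symbol starts with Il and a digit, Ccl, Ccr and a digit, Cxcl or Cxcr, out of 20665 autosomal protein-coding genes. They were chosen by symbol and not by any measured value. By role they held 37 interleukin ligands, 34 interleukin receptors, 5 interleukin antagonists or binding proteins, 2 interleukin-induced enzymes, 25 CC chemokine ligands, 11 CC chemokine receptors, 12 CXC chemokine ligands and 5 CXC chemokine receptors. Many lie side by side, and members within 50 kb of each other formed 93 loci. Ccl21c is listed at a position below 3 Mb, where the assembled mouse chromosomes hold no placed genes, and so could not receive a peak.

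The libraries came from mouse PDGF neural stem cells, described in the design text as mouse DIPG (diffuse intrinsic pontine glioma) cells that express histone H3.3 with the K27M substitution (K27M) or wild-type H3.3 (H3WT). Cells were given EPZ6438 (EPZ), an inhibitor of the methyltransferase Ezh2, at 3 µM for 12 days, or DMSO, the solvent. H3K27me3 was mapped by chromatin immunoprecipitation and sequencing (ChIP-seq) with 2 libraries in each of the groups K27M EPZ, H3WT EPZ, K27M DMSO and H3WT DMSO, and Suz12 and Ring1b with 1 library each in K27M DMSO and H3WT DMSO cells. The labels do not say how many cell lines or clones were used, how the histones or PDGF were delivered, or whether replicates were separate cultures. The deposited values are peak positions, so levels of the mark, of RNA and of protein were not measured.

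Interleukins and chemokines are secreted proteins through which mainly immune cells signal. Many interleukins bind receptor chains that act through JAK kinases and STAT factors or, in the interleukin 1 family, through MyD88. Chemokines bind receptors coupled to G proteins and direct cell migration, and Cxcl12 with its receptor Cxcr4 also guides neural progenitors and interneurons in the developing brain. Most of these genes are silent outside immune cells until an inflammatory signal arrives. Polycomb repression is carried out by the complex PRC2, which holds Suz12 and deposits H3K27me3, and by PRC1, which holds Ring1b. Its best known targets are developmental regulators with CpG-rich promoters.

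H3K27me3 reached a minority of interleukin and chemokine genes, and the count depended on the library. A gene is called marked in a library where a peak lies within 1 kb of its start or end. In K27M DMSO, replicate 1 marked 1 gene (0.763% of 131, against 4.62% of all autosomal genes) and replicate 2 marked 9 genes (6.87%, against 10.0%). In H3WT DMSO, replicate 1 marked 11 genes (8.40%, against 10.7%) and replicate 2 marked 41 genes (31.3%, against 20.8%). The members were thus above the share of all genes in 1 of the 4 DMSO libraries and below it in the other 3, and none of these differences was tested. The same libraries also differ in list length. On the autosomes they held 2153 and 9368 peaks in K27M and 11053 and 43446 in H3WT, replicate 1 before replicate 2. The part of list length in the counts was not tested.

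**Figure D1:**
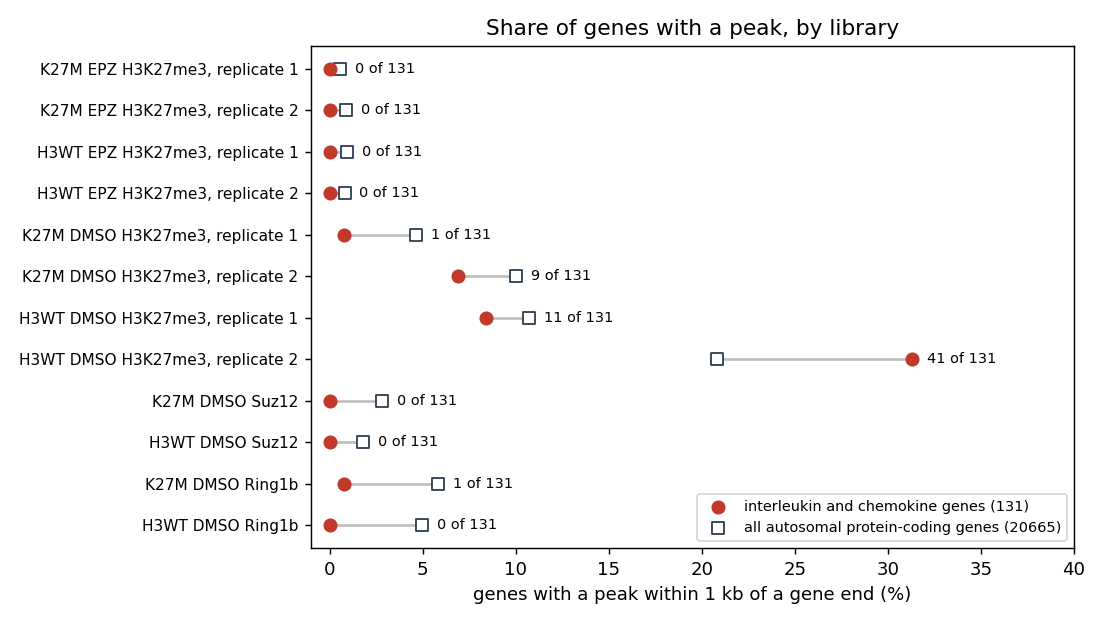
Share of genes with a peak within 1 kb of a gene end (horizontal axis, percent) in each of the 12 libraries; filled circles are the 131 interleukin and chemokine genes, open squares all 20665 autosomal protein-coding genes, and the text gives the number of the 131 with a peak. The circle lies right of the square in H3WT DMSO replicate 2 (31.3% against 20.8%) and left of it in the other 11 libraries.

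With a peak required in both libraries of a group, 1 member was marked in K27M DMSO (4.62% of all genes were) and 10 in H3WT DMSO (10.6% of all genes). The 10 were the CXC ligand genes Cxcl12 and Cxcl14, the interleukin genes Il6, Il7, Il12b and Il31, and the receptor genes Il10ra, Il12rb2, Il18r1 and Il1rl1. No CC ligand, CC receptor or CXC receptor was among them. Of the 41 genes marked in H3WT DMSO replicate 2, 10 were also marked in replicate 1 (24.4%), against 50.8% for all autosomal genes. Replicate 1 alone gave 11 genes and replicate 2 alone 41, so replicate 1 set the count of 10. Il6ra, a chain of the interleukin 6 receptor, was the gene marked in replicate 1 and not in replicate 2.

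Of the 10 genes marked in both H3WT DMSO libraries, 1 was also marked in each K27M DMSO library and is called retained (42.8% of all such autosomal genes were). It was Cxcl12. A further 5 had a peak in K27M replicate 2 alone (38.4% of all such genes), namely Cxcl14, Il7, Il10ra, Il12rb2 and Il31. The remaining 4, Il6, Il12b, Il18r1 and Il1rl1, had a peak in neither K27M library and are called lost (18.8% of all such genes). With peaks of at least 3 kb only, 0 members were marked in both K27M libraries (3.3% of all genes) and 4 in both H3WT libraries (6.99% of all genes), so that Cxcl12 was no longer retained. The next shares are of all 20665 genes, whether marked in H3WT or not. With replicate 2 alone 9 of the 131 members were retained and 32 lost, against 9.89% and 10.9% of all genes. With replicate 1 alone there were 1 and 10, against 4.53% and 6.14% of all genes. The genotypes were compared without a call, since 2 libraries against 2 allow no exact permutation p below 0.333.

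Within replicate 1, 1 of the 11 genes marked in H3WT DMSO also had a K27M peak (9.09%, against 42.5% of all genes marked in that H3WT library). Within replicate 2, 9 of 41 did (22.0%, against 47.5%). These 9 were the 6 with H3WT peaks in both replicates and a K27M peak, and Il17d, Il24 and Il1r2. At Il1r2 the K27M peak lay at the 3′ end and the H3WT peak at the 5′ end, so the gene was counted on peaks at different sites. Its covered length in K27M replicate 2 was 7.32 kb, against 0 and 5.03 kb in H3WT DMSO. In both replicate numbers the share of members with a K27M peak lay below that of all marked genes, a difference that was not tested. No member had the reverse pattern, marked in each K27M library and unmarked in each H3WT library, which 0.0145% of all genes had.

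Cxcl12, which encodes the chemokine SDF-1 that attracts Cxcr4-bearing cells, lies on chromosome 6 from 117168535 to 117181368 on the plus strand. The covered length of a gene is the total stretch that peaks occupy up to 10 kb to either side of its start and of its end. For Cxcl12 it was 2.84 and 5.61 kb in K27M DMSO, against 5.66 and 13.5 kb in H3WT DMSO. Both K27M values lay below both H3WT values, 5.61 kb only just below 5.66 kb (means 4.22 ± 1.96 and 9.57 ± 5.53 kb, SD, n = 2 each). A peak covered the 5′ end in all 4 libraries. Its width was 2.84 and 5.61 kb in K27M and 5.66 and 11.2 kb in H3WT, and the narrowest, in K27M replicate 1, reached from -0.307 to 2.53 kb relative to the 5′ end.

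Cxcl14, a chemokine of epithelia and neurons (chromosome 13, 56288643 to 56296811, minus strand), had 0 and 3.86 kb in K27M DMSO, against 4.86 and 8.13 kb in H3WT DMSO. Its groups did not overlap either, and its peak covered the 5′ end in each of the 3 libraries that had one. Il12rb2, the signalling chain of the interleukin 12 receptor (chromosome 6, 67285986 to 67376293, minus strand), had 0 and 1.25 kb in K27M DMSO, against 2.61 and 11.6 kb in H3WT DMSO. Its K27M peak in replicate 2 was 1.25 kb wide and lay on the 5′ end, inside the span of the 7.94 kb peak of H3WT replicate 2. A K27M peak also reached the upstream sequence of Il31, a cytokine of itch, and of Il17d, an interleukin 17 family member, in replicate 2, without covering the 5′ end. The upstream sequences of these 5 genes are shown because they are the members, among those with a promoter in the table, whose promoter a K27M peak overlapped. They give the 250 bases before the 5′ end in RefSeq's GRCm38.p6 table, with each CG dinucleotide in capitals.
Cxcl12 (chr6:117168285-117168534, plus strand): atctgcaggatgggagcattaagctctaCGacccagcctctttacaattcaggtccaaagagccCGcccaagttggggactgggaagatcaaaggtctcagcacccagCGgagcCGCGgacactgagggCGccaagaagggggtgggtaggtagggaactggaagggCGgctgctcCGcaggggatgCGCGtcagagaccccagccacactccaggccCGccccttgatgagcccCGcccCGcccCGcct
Cxcl14 (chr13:56296552-56296801, minus strand): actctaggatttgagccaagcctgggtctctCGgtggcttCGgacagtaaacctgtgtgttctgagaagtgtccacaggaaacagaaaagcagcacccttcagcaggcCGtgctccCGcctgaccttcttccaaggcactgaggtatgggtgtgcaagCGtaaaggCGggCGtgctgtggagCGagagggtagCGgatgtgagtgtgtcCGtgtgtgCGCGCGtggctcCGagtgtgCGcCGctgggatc
Il12rb2 (chr6:67376189-67376438, minus strand): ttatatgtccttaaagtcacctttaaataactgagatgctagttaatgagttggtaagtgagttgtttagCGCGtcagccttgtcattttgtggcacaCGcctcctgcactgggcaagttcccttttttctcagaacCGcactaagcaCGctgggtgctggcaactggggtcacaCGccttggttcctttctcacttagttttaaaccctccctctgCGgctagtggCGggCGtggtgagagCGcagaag
Il17d (chr14:57524579-57524828, plus strand): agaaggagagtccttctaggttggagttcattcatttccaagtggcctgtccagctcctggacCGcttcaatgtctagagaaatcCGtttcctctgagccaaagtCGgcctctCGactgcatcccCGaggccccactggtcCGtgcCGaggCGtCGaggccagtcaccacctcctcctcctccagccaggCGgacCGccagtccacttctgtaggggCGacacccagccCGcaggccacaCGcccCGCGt
Il31 (chr5:123482624-123482873, minus strand): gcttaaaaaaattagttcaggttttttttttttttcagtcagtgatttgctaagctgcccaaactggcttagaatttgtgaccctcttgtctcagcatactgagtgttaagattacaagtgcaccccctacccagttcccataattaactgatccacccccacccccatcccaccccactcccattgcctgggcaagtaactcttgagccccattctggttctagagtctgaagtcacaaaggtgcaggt
CG was searched as the letters CG, which read the same on both strands. Cxcl12 had 14 in 250 bases, Cxcl14 and Il17d had 16 each, Il12rb2 had 10 and Il31 had 0. Over the 16457 autosomal protein-coding genes with an entry the median was 10.0, and 93.0% held at least 1. As many CG as in Cxcl12 were present in 40.7% of them, as many as in Cxcl14 or Il17d in 35.2% and as many as in Il12rb2 in 51.8%.

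The peaks that marked the lost genes in H3WT DMSO replicate 1 were 1.00 to 1.76 kb wide. Il6, the ligand of the gp130 receptor pathway in inflammation (chromosome 5, 30013114 to 30019975, plus strand), had 0 kb in both K27M DMSO libraries, against 1.76 and 16.3 kb in H3WT DMSO. In H3WT replicate 1 its 1.76 kb peak lay over the 3′ end, and the peaks of 5.33 and 4.84 kb in replicate 2 lay at the 5′ and the 3′ end. Il12b, the p40 chain shared by interleukins 12 and 23 (chromosome 11, 44400063 to 44414677, plus strand), had 0 kb in both K27M libraries, against 1.39 and 7.58 kb in H3WT. Its peak in H3WT replicate 1 began 0.014 kb past the 5′ end and was 1.39 kb wide. Il18r1, the binding chain of the interleukin 18 receptor, and Il1rl1, the receptor of interleukin 33, adjoin each other on chromosome 1 and were marked by the same peak, which lay on the 5′ end of Il18r1 and the 3′ end of Il1rl1 (40464914 to 40465914 in H3WT replicate 1). Their count of 2 therefore rests on 1 peak per library, 1.00 kb wide in replicate 1 and 2.03 kb in replicate 2. Il18r1 had 0 kb in both K27M libraries, against 1.00 and 6.73 kb in H3WT.
The 250 bases before the 5′ end of 3 lost genes are shown for comparison, marked in the same way.
Il6 (chr5:30012864-30013113, plus strand): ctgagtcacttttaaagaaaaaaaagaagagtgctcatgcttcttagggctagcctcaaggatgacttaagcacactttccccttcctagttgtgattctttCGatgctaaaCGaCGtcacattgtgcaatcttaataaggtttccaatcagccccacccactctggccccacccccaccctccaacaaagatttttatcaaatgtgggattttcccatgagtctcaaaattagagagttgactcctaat
Il12b (chr11:44399813-44400062, plus strand): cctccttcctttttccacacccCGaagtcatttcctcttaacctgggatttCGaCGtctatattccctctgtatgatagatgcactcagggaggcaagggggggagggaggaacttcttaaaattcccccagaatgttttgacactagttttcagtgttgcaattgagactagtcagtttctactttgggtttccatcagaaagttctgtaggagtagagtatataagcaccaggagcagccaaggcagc
Il18r1 (chr1:40465302-40465551, plus strand): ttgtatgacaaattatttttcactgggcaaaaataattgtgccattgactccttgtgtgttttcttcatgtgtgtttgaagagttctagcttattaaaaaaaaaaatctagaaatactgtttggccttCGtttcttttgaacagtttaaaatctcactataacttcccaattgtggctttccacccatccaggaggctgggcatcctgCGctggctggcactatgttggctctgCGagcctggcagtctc
Each of these held 3 CG in 250 bases, a number that 77.0% of all promoters in the table reach. Il1rl1, the other lost gene, held 0 and was marked at its 3′ end. The 5 upstream sequences overlapped by a K27M peak held 0 to 16, so the ranges overlap. A promoter was given for 99 of the 131 members (75.6%), fewer than 80%, so a comparison of CG content over the whole group is void and was not made.

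**Figure D2:**
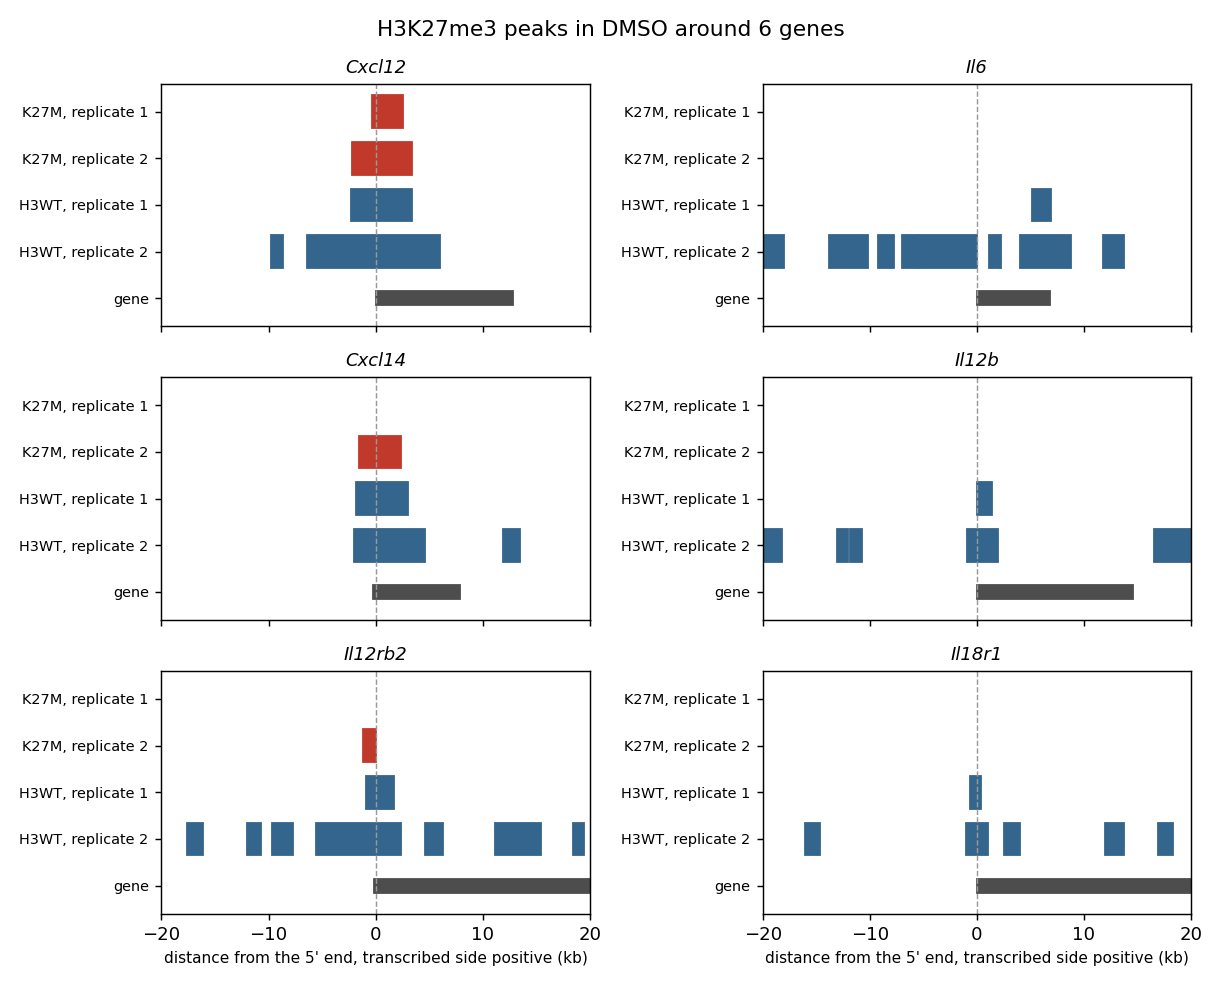
H3K27me3 peaks (boxes) of the 4 DMSO libraries within 20 kb of the 5′ end of 6 genes; the horizontal axis is the distance from the 5′ end in kb, with the transcribed side positive, red boxes are K27M, blue boxes H3WT and the grey bar is the gene. A box lies on the 5′ end of Cxcl12 in all 4 libraries, of Cxcl14 and Il12rb2 in 3, and Il6, Il12b and Il18r1 have boxes in the H3WT libraries only.

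Il7, a survival factor of lymphocytes (chromosome 3, 7572028 to 7613760), had the widest cover of all members in both H3WT DMSO libraries, with 0 and 3.29 kb in K27M DMSO, against 11.7 and 21.7 kb in H3WT DMSO. One peak of 21.0 kb lay at its higher-coordinate end in H3WT replicate 2, against 4.28 kb in H3WT replicate 1 and 1.42 kb in K27M replicate 2. Il10ra, the ligand-binding chain of the interleukin 10 receptor (chromosome 9, 45253837 to 45269149), had 0 and 3.40 kb in K27M, against 4.61 and 10.9 kb in H3WT. The groups of both genes did not overlap. In K27M replicate 2 the widest cover was at Il24, a cytokine of the interleukin 10 family, with 9.60 kb, and at Il1r2, the decoy receptor of interleukin 1, with 7.32 kb. Il31 (chromosome 5, 123480152 to 123482623), had 0 and 3.95 kb in K27M, against 2.56 and 15.9 kb in H3WT, and here K27M replicate 2 lay above H3WT replicate 1.

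Each K27M DMSO library had less cover than each H3WT DMSO library at 12 members, among 10.5% of all genes, and the members' own share was 9.16%. Besides 9 of the 10 genes above, all but Il31, these were Ccl1, Il1a and Il6ra. With peaks of at least 3 kb only the count was 4 (4.38% of all genes). The median difference in covered length between K27M and H3WT was -0.500 kb over the members and 0 kb over all autosomal genes, and the means were -1.72 and -1.22 kb.

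**Figure D3:**
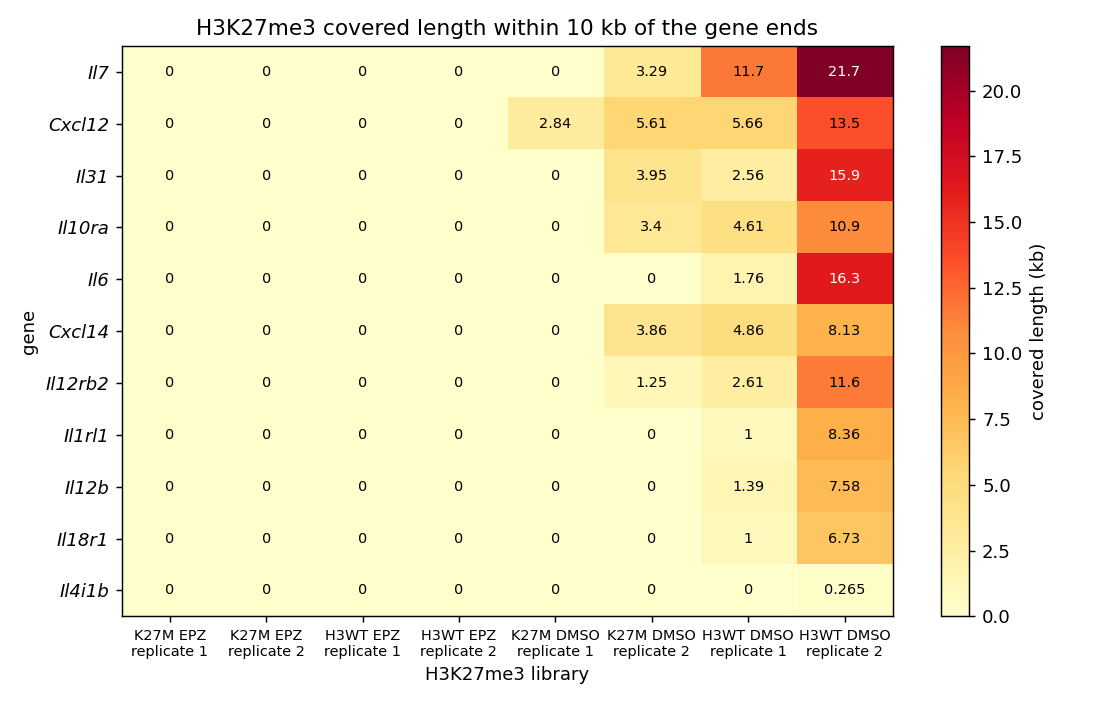
Covered length in kb (cell values and colour) within 10 kb of the ends of 11 genes, in the 8 H3K27me3 libraries; the genes are those with a peak in both H3WT DMSO libraries and Il4i1b, which had a Ring1b peak. All 4 EPZ columns are 0, K27M DMSO replicate 1 is above 0 at Cxcl12 alone with 2.84 kb, and H3WT DMSO replicate 2 has the highest value in every row.

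By role, peaks in H3WT DMSO replicate 2 were called at 16 of 34 interleukin receptors, 12 of 37 interleukin ligands and 3 of 5 antagonists or binding proteins. They were called at 3 of 12 CXC ligands, 1 of 5 CXC receptors, 3 of 25 CC ligands and 3 of 11 CC receptors. In H3WT replicate 1 the counts were 5 of the 34 interleukin receptors, 4 of the 37 interleukin ligands and 2 of the 12 CXC ligands, and 0 in the other roles. In K27M DMSO replicate 2 they were 2 interleukin receptors, 4 interleukin ligands, 1 antagonist and 2 CXC ligands. Of all autosomal genes, 20.8% were marked in H3WT replicate 2, 10.7% in H3WT replicate 1 and 10.0% in K27M replicate 2. Roles were not tested against each other or against these shares, and neighbours within a role can share a peak.

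The receptor genes marked in H3WT replicate 2 alone included Il18rap, the accessory chain of the interleukin 18 receptor, with 13.5 kb of cover in that library and 0 kb in the other 3 DMSO libraries. Il17re, the receptor of Il17c, had 0 and 1.49 kb in K27M DMSO, against 0 and 12.8 kb in H3WT DMSO. Ccr3, the eotaxin receptor, had 0 and 2.0 kb in K27M, against 1.29 and 13.8 kb in H3WT. Ccr2, the receptor of Ccl2, had 0 kb in both K27M libraries, against 0 and 8.96 kb in H3WT. Among ligands of the same pattern, Il1f10, a member of the interleukin 1 family, had 0 kb in both K27M libraries, against 0 and 13.8 kb in H3WT, and Il1b, a pyrogenic cytokine, had 0 kb in both, against 0 and 5.83 kb. All of these rest on 1 library.

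**Figure D4:**
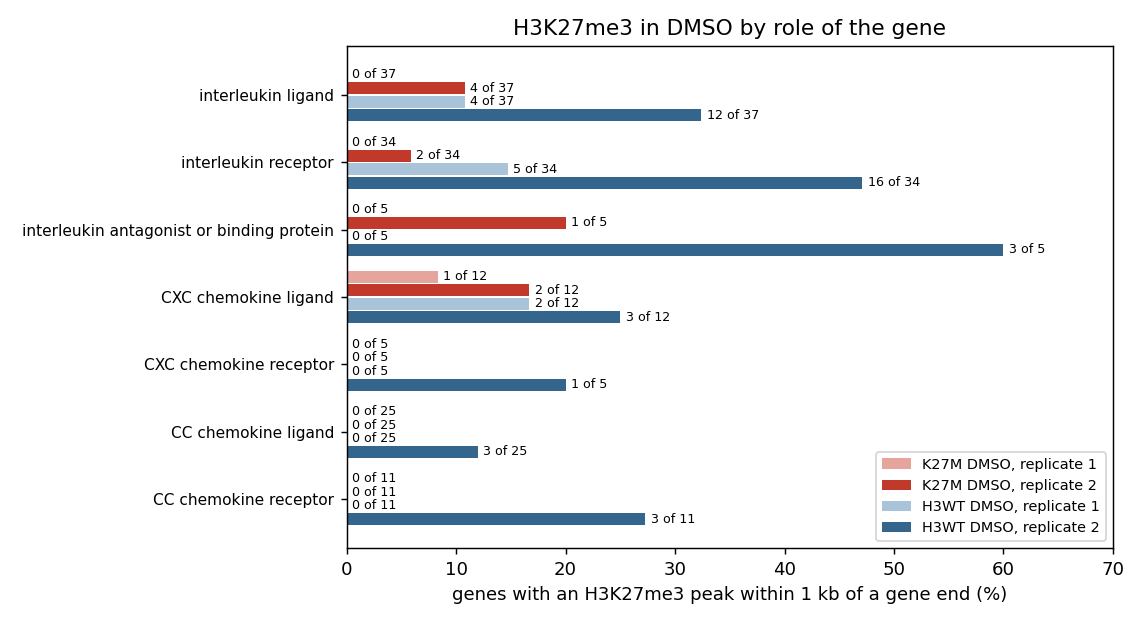
Share of genes with an H3K27me3 peak within 1 kb of a gene end (horizontal axis, percent) by role, in the 4 DMSO libraries; bars start at 0, and the text gives the number of genes. H3WT DMSO replicate 2 has the longest bar in every role with a peak, with 16 of 34 interleukin receptors, and the CC ligands, CC receptors and CXC receptors have peaks in that library alone. Of all autosomal protein-coding genes, 20.8% had a peak in that library.

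Several chemokine clusters had no peak at any gene end in any of the 12 libraries. On chromosome 5 these were Cxcl5, Cxcl3 and Cxcl15 (90759298 to 90803067), Cxcl1 and Cxcl2 (90891245 to 90905938), and Cxcl9 and Cxcl10 (92321331 to 92348889), which attract neutrophils or activated T cells. Ccl5, Ccl9 and Ccl6 on chromosome 11 and the T helper 2 pair Il4 and Il13 were also without a peak. Il13 had 1.00 kb of cover in H3WT DMSO replicate 2 and 0 kb in the other libraries. Ccl19 and Ccl21a, Ccl27a with Il11ra1, and Ccl27b with Il11ra2 on chromosome 4 had none either. Ccl21a to Ccl21d, Ccl27a and Ccl27b, and Il11ra1 and Il11ra2 are near-identical copies at which reads may not map to a single place, so the absence of a call there is uncertain. The neighbouring cluster of Ccl2, Ccl7, Ccl11, Ccl12 and Ccl8 was marked at Ccl11 and Ccl8 in H3WT DMSO replicate 2 alone. Ccl4 had 16.6 kb of cover in that library without a peak within 1 kb of its ends, and 0 kb in the others.

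Cxcr4, the receptor of Cxcl12 (chromosome 1, 128588199 to 128592299), had 2.83 kb of cover in H3WT DMSO replicate 2 and 0 kb in the other 11 libraries, with no peak within 1 kb of its ends. Il6st, which encodes the shared receptor chain gp130, Il33, an alarmin of glia and endothelium, Il10 and Ccl2 had 0 kb in all 12 libraries.

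In each DMSO library the median peak at a member was narrower than the median peak at any gene end. K27M DMSO replicate 1 had 1 such peak, of 2.84 kb, against 4.57 kb over 883 peaks. The median width in K27M DMSO replicate 2 was 1.92 kb over 12 peaks, against 4.52 kb over 1997 peaks at any autosomal gene. In H3WT DMSO it was 2.19 kb over 10 peaks in replicate 1, against 3.77 kb over 2197, and 2.73 kb over 48 peaks in replicate 2, against 4.0 kb over 4668. The difference was not tested. Of the 48 peaks in H3WT replicate 2, 4 also reached an end of another gene. Among the 31 genes marked there whose strand the table gives, the 5′ window held a peak at 24 and only the 3′ window at 7. The 5′ window lies around the gene boundary, which can differ from the 5′ end, and a peak covered the 5′ end at 15. The same split over all marked genes was not computed.

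By the median distance to the nearest peak, members lay nearer to one than all genes did in each of the 4 DMSO libraries, although within 1 kb their share was the lower in 3 of them. The distances were not tested. In K27M DMSO the median member lay 440.8 kb from a peak in replicate 1 and 83.7 kb in replicate 2, against 499.9 and 99.1 kb for all genes. In H3WT DMSO it lay 64.3 and 7.15 kb away, against 96.8 and 18.3 kb for all genes. The members just inside and just outside 1 kb were Il1r2 at 0.180 kb and Il27 at 1.47 kb in K27M replicate 2. They were Il31 at 0.952 kb and Il24 at 1.51 kb in H3WT replicate 1, and Ccl3 at 0.834 kb and Ccl22 at 1.04 kb in H3WT replicate 2. In K27M replicate 1 they were Cxcl12 at 0 kb and Cxcr4 at 22.9 kb.

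Under EPZ none of the members was marked. For K27M EPZ the shares of all autosomal genes were 0.532% in replicate 1, 0.881% in replicate 2 and 0.518% in both. In H3WT EPZ they were 0.910%, 0.798% and 0.784%. The nearest EPZ peak to any member lay 187 kb from Ccl4 in K27M replicate 1, 144.6 kb from Il3 in H3WT replicate 1 and 185.1 kb from Ccl4 in H3WT replicate 2. At these background shares a count of 0 among 131 genes is not far from that of all genes.

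Covered length fell without overlap between the 4 EPZ and the 4 DMSO libraries at 1 member, Cxcl12, and at 6.55% of all genes. Cxcl12 had 0 kb in all 4 EPZ libraries, against 2.84 to 13.5 kb in DMSO, a difference of -6.90 kb (exact two-sided permutation test, p = 0.0286, the smallest that 4 against 4 allows). The relabellings exchanged K27M and H3WT libraries freely, so the test took no account of genotype. After Benjamini-Hochberg adjustment over all 20665 genes the exact p was 0.436, and 0 genes passed 0.05, where 1354 did without adjustment. With replicate 1 of every group left out, EPZ lay below DMSO at 19 members (18.4% of all genes), and with replicate 2 left out at 1 (6.56% of all genes). With peaks of at least 3 kb only it did so at 0 members (4.31% of all genes). The other members with a peak in both H3WT libraries also had 0 kb in all EPZ libraries, but at least 1 DMSO library was at 0 as well. The median difference between EPZ and DMSO was -0.250 kb over the members and 0 kb over all genes.

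Few Suz12 or Ring1b peaks were called at interleukin and chemokine genes, and the lists were short. On the autosomes they held 1243 Suz12 peaks in K27M and 631 in H3WT, and 1777 and 1727 Ring1b peaks. No member had a Suz12 peak at an end in K27M cells (2.81% of all genes had) or in H3WT cells (1.79%). Ring1b was called at 1 member in K27M cells (5.82% of all genes) and at 0 in H3WT cells (4.96%). The nearest Suz12 peak to any member was 18.8 kb from Il27ra in K27M cells and 28.6 kb from Cxcl14 in H3WT cells. At Cxcl12, where H3K27me3 was called in all 4 DMSO libraries, the nearest Suz12 peak lay 1015 kb away in each genotype, and the nearest Ring1b peak 697.7 kb away in K27M and 697.3 kb in H3WT. With 1 library per target and genotype these counts have no replicate check, and their differences from the shares of all genes were not tested.

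The member with Ring1b was Il4i1b, named after the interleukin 4 induced gene, on chromosome 7 from 44816370 to 44840804. Its peak in K27M cells was 1.28 kb wide (44815704 to 44816988) and also reached an end of Atf5, a stress-response transcription factor gene, and of Nup62, a nuclear pore gene, so it cannot be assigned to Il4i1b alone. In H3WT cells the nearest Ring1b peak lay 20.4 kb away, and no H3K27me3 library had a peak at an end of Il4i1b.

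A list of 71 other cytokine and chemokine signalling genes (receptors, kinases, STAT and SOCS factors, colony-stimulating and tumour necrosis factors) was examined for comparison. In K27M DMSO, replicate 1 marked 2 of the 71 (2.82%, against 4.62% of all autosomal genes) and replicate 2 marked 8 (11.3%, against 10.0%). In H3WT DMSO, replicate 1 marked 9 (12.7%, against 10.7%) and replicate 2 marked 22 (31.0%, against 20.8%). Suz12 was called at 3 in K27M cells (4.23%, against 2.81%) and at 1 in H3WT cells (1.41%, against 1.79%). Ring1b was called at 4 in K27M cells (5.63%, against 5.82%) and at 2 in H3WT cells (2.82%, against 4.96%). Jak3, the kinase of the common gamma chain receptors, had a Suz12 peak in both genotypes and 10.7 and 12.5 kb of H3K27me3 cover in K27M DMSO, against 12.1 and 13.5 kb in H3WT DMSO. Socs2, a feedback inhibitor of cytokine receptors, had 3.99 and 12.1 kb in K27M, against 9.81 and 14.1 kb in H3WT, and Ring1b in both genotypes. Tnf and its neighbour Lta shared 0 and 5.48 kb in K27M, against 6.11 and 12.4 kb in H3WT, with no Suz12 or Ring1b peak. The difference between this list and the 131 genes was not tested.

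The cell identity on the labels can be set only against peaks, not against expression. Of 12 neural stem and progenitor markers, Pdgfra was marked in both K27M DMSO libraries and in H3WT DMSO replicate 2, and Prom1 in K27M DMSO replicate 2 and in both H3WT DMSO libraries. Sox2, Nes, Olig2 and the others had no H3K27me3 peak at an end in any library. Of 13 leukocyte and microglia markers, Cd3e was marked in both H3WT DMSO libraries and the other 12 in none of the H3K27me3 libraries.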

How the data were processed

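ChIP-seq peak lists of 12 of the 14 samples were used; the 2 IgG samples were not analysed here. Per the submitters' processing notes, Bowtie 1.1.2 and the mm10 build were used. Which program called the peaks, at what threshold and against which control, and the read depth are not given in the sources used here. Each deposited list gives peak positions for 1 library. The score column of the deposited lists is 0 in all 100144 lines and was not used. Touching peaks were merged, which removed 21. Groups and replicate numbers came from the titles and descriptions.

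Gene positions came from RefSeq's table for GRCm38.p6, whose chromosomes are those of mm10, and strands and upstream sequences from its promoter table by gene ID. A peak overlapping a window of 1 kb to either side of a gene start or end by at least 1 bp marked a gene. Covered length was compared between EPZ and DMSO by exact permutation over 70 relabellings for every gene, with Benjamini-Hochberg adjustment, using Python 3.11.15 and NumPy 2.4.6, after a check on simulated data. Members and lists were chosen with earlier results of these data known, so no test over the list was made. Named genes were members with a peak in both libraries of a DMSO group or in an EPZ, Suz12 or Ring1b library, the 5 others with the widest cover in H3WT DMSO replicate 2, and 10 fixed genes, among them Il6, Cxcl12 and Cxcr4; other genes were named after their values were seen. P-values measure only the spread between libraries, which may be technical.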

Additional observations from a re-analysis of the deposited data

How the results depend on the processing

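With peaks of at least 3 kb only, the members with a peak in both libraries fell to 0 in K27M DMSO and 4 in H3WT DMSO, with 0 retained and 1 lost (3.3%, 6.99%, 3.19% and 0.997% of all genes). The K27M Ring1b count was 0 (1.69% of all genes). The count with less cover in every EPZ than every DMSO library was 0 (4.31% of all genes). That with less cover in both K27M than both H3WT libraries was 4 (4.38% of all genes). With a peak in either replicate sufficing, 9 members were marked in K27M DMSO and 42 in H3WT DMSO, with 9 retained and 33 lost (10.0%, 20.9%, 9.90% and 11.0% of all genes). Leaving out 1 replicate number at a time gave 1 to 9 marked members in K27M DMSO, 11 to 41 in H3WT DMSO, 1 to 9 retained, 10 to 32 lost, and 1 to 19 with less cover in EPZ. Over all genes the shares marked were 4.62% to 10.0% in K27M DMSO and 10.7% to 20.8% in H3WT DMSO. The shares retained, lost and with less cover in EPZ were 4.53% to 9.89%, 6.14% to 10.9% and 6.56% to 18.4%. The cause of these shifts was not tested. The other 59 recounts, with windows of 5 kb, whole genes, a 500 bp overlap or neighbours as 1 locus among them, stayed within 1.5 times. Those for members marked in both H3WT DMSO libraries lay between 9 and 15, and the share of all genes moved as well. It was 15.2% with windows of 5 kb, 13.9% with whole genes and 9.61% with a 500 bp overlap, against 10.6% in the main setting. The counts under EPZ and for Suz12 stayed at 0 in all of these settings.

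Comparing libraries within replicate numbers (replicate block), 1 member had less cover in EPZ in every pair and 18 had less cover in K27M in both pairs (6.57% and 17.7% of all genes), where 12 did without the pairing (10.5% of all genes). Same-numbered libraries deviated together between the DMSO groups (correlation of 0.34 over genes) but not between the EPZ groups (-0.20), so the numbers were not taken to pair the samples. Peak lists with unknown depth limit every count here: a gene without a peak is below the caller's threshold and not shown to lack the mark.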
